A study of Mus musculus with 14 samples.

Results

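Motile cilia genes are described here in whole mouse ovary, as genes that ciliated epithelium expresses, such as that of the oviduct, which borders the ovary. The members are the protein-coding genes whose symbols are Foxj1 or a number of the families Cfap, Dnah, Dnai, Rsph or Drc. The rule used names only and no measured value, and it found 64 genes of the 56748 in the table, among 21970 protein-coding genes. RNA came from ovaries of wild-type (WT) C57BL/6J mice, all female, in 4 groups. The groups were 3 control and 4 DSS libraries of day 7, and 3 control and 4 DSS libraries of day 89. DSS (dextran sodium sulfate) is a sulfated sugar polymer that causes colitis when mice drink it, and the series text calls day 7 the end of modelling and day 89 a time after rest. The labels give neither the age of the mice nor the dose of DSS. The labels do not say whether libraries stem from different animals, and p-values therefore describe library spread, part of which may be technical.

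A motile cilium is a whip-like projection whose core, the axoneme, is a ring of doublet microtubules around a central pair. Dynein arms, which are motors built from heavy and intermediate chains, slide the doublets past each other, while radial spokes, the nexin-dynein regulatory complex and the central apparatus shape the beat. Foxj1 encodes the transcription factor that switches on this program. In the female reproductive tract, multiciliated cells line the oviduct and move the egg, while the ovary itself consists mostly of cells that carry at most a single primary cilium, which lacks the motility machinery. Several members are also used outside motile cilia or in the sperm tail.

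Recovered depth was similar in all libraries, from 15256000 to 18505100 reads, to 6 digits. Mitochondrial genes took 9.96%, 12.2% and 14.2% of reads in control replicates 10 and 53 and DSS replicate 75, all of day 7, and 0.479% to 4.04% in the other 11 libraries. A measure of short against long genes also set libraries apart. It is the mean log2 deviation of the shortest 25% of genes from their means over all libraries, minus that of the longest 25%. It ran from 0.12 to 0.42 in the 7 day 7 libraries and from -0.38 to -0.24 in the day 89 libraries, except DSS replicate R38, which at 0.11 lay near the day 7 libraries. Ovary is the labelled tissue, although the extraction protocol mentions retinas. Of 17 retina genes found, 14 stayed under 0.5 FPKM in every library and the highest value was 7.22, for Rom1. All 18 oocyte genes were tested, and their summed level was 50.8 to 705 FPKM per library.

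Most of the motility machinery was at a low level. The median of the members' mean levels was 0.182 FPKM (fragments scaled to gene length and library size, which allows levels of different genes to be set side by side), against 1.84 FPKM for all protein-coding genes. A mean under 0.5 FPKM was found for 44 members, a mean under 0.1 FPKM for 22 and a mean of 1 FPKM or more for 14. No member was at 0 in all 14 libraries, and 19 were at 0 in at least 1. Genes were tested when at least 3 of the 14 libraries reached 0.5 FPKM. That filter passed 26 members (40.6%) and 62.8% of protein-coding genes. The 6 members described as broadly expressed (Cfap36, Cfap418, Cfap20, Cfap97, Cfap298 and Cfap410) all passed, as did 20 of the other 58.

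**Figure D1:**
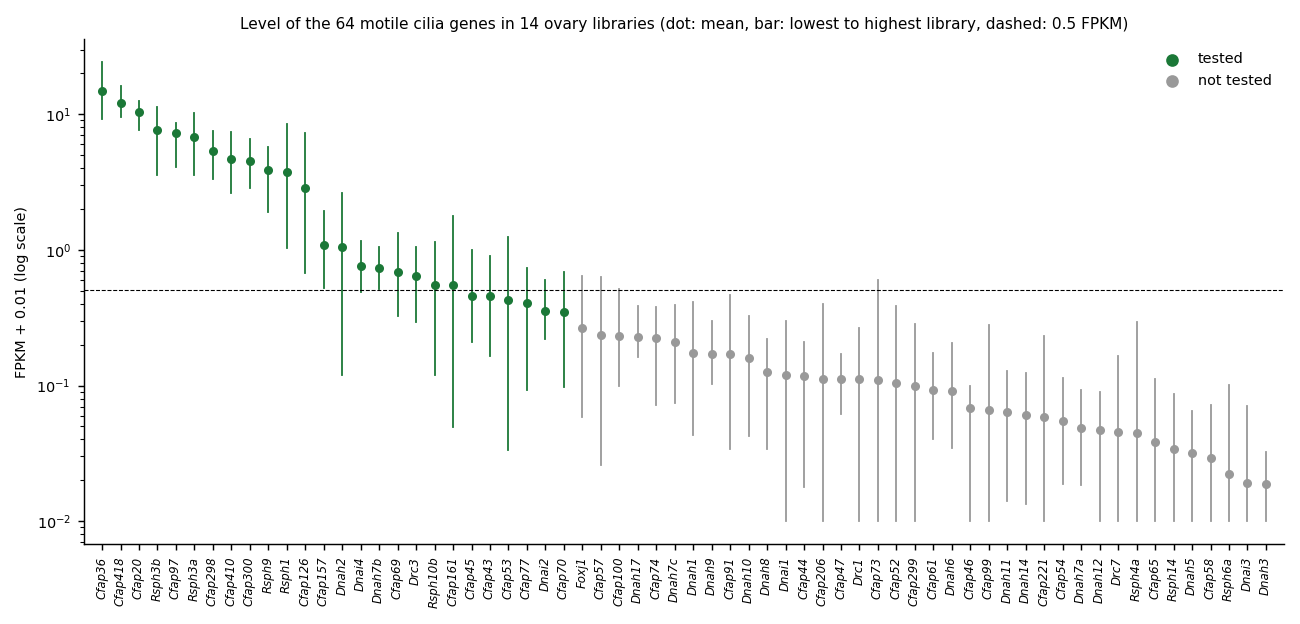
FPKM plus 0.01 on a log axis for each of the 64 motile cilia genes, ordered by mean. Dots are means over 14 libraries, bars run from the lowest to the highest library, and the dashed line marks 0.5 FPKM. The 38 genes that were not tested lie to the right.

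Foxj1 (ENSMUSG00000034227, chromosome 11, 116330704 to 116335399 on the minus strand of GRCm38) did not pass the filter. Its level was 0.305, 0.289 and 0.547 FPKM in the control libraries of day 7 and 0.170, 0.189, 0.322 and 0.200 FPKM in the DSS libraries of that day. At day 89 it was 0.146, 0.0860 and 0.233 FPKM in control and 0.0484, 0.263, 0.630 and 0.129 FPKM in DSS. Groups overlapped within both days, and the highest value belonged to a day 89 DSS library, replicate R78. These levels rest on 2 to 27 reads per library, 155 in all.

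Of 15 multiciliogenesis regulators found, which act upstream of Foxj1 or beside it, 7 were tested and 8 were not. Mcidas, the regulator that commits a cell to making many cilia, had no read in any library. The related Gmnc did not exceed 0.0491 FPKM and Cdc20b did not exceed 0.0314 FPKM. The tested ones also serve cells without motile cilia. Ccno, a cyclin-like gene needed for centriole amplification, was at 1.74 to 19.5 FPKM, and the cell cycle genes E2f4, E2f5 and Gmnn averaged 24.6, 15.3 and 15.8 FPKM. Rfx2 and Rfx3, which encode factors that bind ciliary promoters and also act outside multiciliated cells, were at 0.274 to 1.05 FPKM and 0.507 to 1.67 FPKM.

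The outer arm heavy chains were the only class of parts, besides the single gene Foxj1, with no tested member. None of the 5 outer arm heavy chains was tested, and the highest value any of them reached was 0.377 FPKM, for Dnah17 in DSS replicate 81 of day 7. Dnah5, the outer arm chain most often mutated in ciliary dyskinesia, was at 0 to 0.0553 FPKM, and Dnah11 at 0.00397 to 0.117 FPKM. Dnah17 and Dnah8, known from the sperm tail, averaged 0.217 and 0.116 FPKM, and Rsph6a, a spoke head protein of sperm, 0.0122 FPKM. Of 12 male germ line genes set beside them, 10 stayed under 0.5 FPKM in every library. Of 10 inner arm and other heavy chains only Dnah2 and Dnah7b were tested, at means of 1.03 and 0.728 FPKM. Dnah7b has near-identical copies, Dnah7a and Dnah7c, at 0.0388 and 0.199 FPKM, between which reads could be split. Among intermediate chains, Dnai4 averaged 0.749 FPKM and Dnai2 0.344 FPKM. Dnai1, the outer arm chain that pairs with Dnai2, averaged 0.110 FPKM, and Dnai3 0.00922 FPKM.

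Radial spoke genes were the most unequal class. Rsph3b and Rsph3a averaged 7.68 and 6.78 FPKM, and they too are near-identical copies. Rsph9 and Rsph1, which encode parts of the spoke head, averaged 3.87 and 3.75 FPKM, while their partner Rsph4a averaged 0.0350 FPKM and was at 0 in some libraries. Rsph10b (0.538 FPKM) was the last of 5 tested among 11 radial spoke members. Its locus overlaps Pms2 on the same strand, and that of Rsph9 overlaps Mrps18a on the other strand. The microtubule inner proteins, which line the doublets from inside, were mostly tested: 5 of 6 passed, led by Cfap126 at a mean of 2.83 FPKM and Cfap161 at 0.538 FPKM, with Cfap52 left at 0.0940 FPKM.

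Of the 9 central apparatus members only Cfap69 and Cfap70 passed the filter, at means of 0.683 and 0.338 FPKM, and Cfap54 and Cfap221 were under 0.05 FPKM. In the nexin-dynein regulatory complex, Drc3 averaged 0.633 FPKM and was tested, while Drc1, which the complex needs for its assembly, and Drc7 averaged 0.101 and 0.0352 FPKM. Cfap157 and Cfap43, at 1.08 and 0.448 FPKM, were the 2 tested among 8 tether and other axonemal or basal body members. Cfap300, an assembly factor of dynein arms, averaged 4.48 FPKM. Thus single parts of a structure passed the filter while their partners did not, as Rsph1 and Rsph9 but not Rsph4a in the spoke head, and Dnai2 but not Dnai1 in the outer arm. The level of Rsph9 may hold reads of the overlapping Mrps18a, since the strand of counting is not given.

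The 38 untested members had 8.86 reads per library at the median, and counting error alone exceeded 25% of the mean in a single library for 29 of them. Their summed level was 3.82 to 5.46 FPKM in control and 3.16 to 4.54 FPKM in DSS libraries of day 7. At day 89 the sums were 2.81 to 3.21 FPKM in control and 2.76 to 3.48 FPKM in DSS libraries. The sums of both treatments overlapped on each day. Between the 2 days the control sums did not overlap, while the DSS sums did. The reads of these members overlapped between day 7 and day 89 in both treatments. They were 446 to 582 against 426 to 530 in control and 520 to 713 against 440 to 565 in DSS libraries. A count of 0 allows up to 3 reads, and this limit covers counting error only. For the tested members, the variance of reads between libraries was 12.6 times the counting variance at the median, so counting alone does not set their spread. Dnah2 had the highest ratio, 113, with values from 0.110 FPKM in control replicate R123 to 2.62 FPKM in DSS replicate R89.

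Promoter sequences were available for 48 members (52 promoters) in RefSeq on GRCm38.p6, each from 250 bases before to 50 after the gene's start. The X-box, the site of RFX factors, was searched on both strands as its half-sites GTNNCC and GNAAC with 3 bases between them. It was present for 6 of 48 members (12.5%) and for 2.55% of 17492 protein-coding genes. Of the 6 members with the letters, 2 were among the 19 tested members with a promoter and 4 among the 29 untested ones. The forkhead letters GTAAACA were present for 3 of 48 members (6.25%) and 3.45% of all genes. A match describes these letters only, and their absence says nothing of either factor. The stretches before the start of 4 members are shown because the X-box letters, in capitals, sit close to the start in the first 3, and because Cfap298 carries them as a perfect palindrome. They lie at chr1:172521071-172521129 (plus strand), chr16:44394732-44394798 (plus), chr4:34730207-34730269 (minus) and chr16:90934984-90935077 (minus).
Cfap45: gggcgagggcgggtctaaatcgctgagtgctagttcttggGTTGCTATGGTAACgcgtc
Cfap44: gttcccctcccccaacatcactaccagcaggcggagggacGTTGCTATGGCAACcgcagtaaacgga
Cfap206: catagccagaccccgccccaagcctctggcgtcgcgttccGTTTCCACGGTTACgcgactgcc
Cfap298: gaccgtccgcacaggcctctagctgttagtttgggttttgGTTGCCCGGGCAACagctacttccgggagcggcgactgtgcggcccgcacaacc
These 4 members did not share a level: Cfap298 averaged 5.31 FPKM, Cfap45 0.450 FPKM, Cfap44 0.108 FPKM and Cfap206 0.102 FPKM.

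The first comparison asked how motile cilia genes compared in DSS and control ovaries of day 7. No member passed the test, limma on log2(FPKM + 1) with Benjamini-Hochberg adjustment over 18006 genes at 0.05, and 0.0333% of all genes passed it. The lowest adjusted p among members in limma was 0.237. Of the 26 tested members, 15 were lower and 11 higher in DSS, where 48.9% of all genes were lower. Their median log2 difference was -0.05, against 0.00 for all genes tested, and it turned to 0.05 in a fit of recovered reads (voom) and to 0.07 without the 3 libraries of high mitochondrial share. An unadjusted p under 0.05 was reached by 4 members, where 16% of all genes reached it. Over all 64 members, tested or not, 39 had a lower mean in DSS and 25 a higher one. Of the 35722 genes above 0 in any library, 15079 had a lower mean and 16527 a higher one.

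Dnai4, an intermediate chain of an inner dynein arm, had the smallest p. Its level was 1.16, 0.910 and 0.776 FPKM in control and 0.518, 0.611, 0.477 and 0.690 FPKM in DSS libraries. Every DSS library was below every control library, which also held for Drc3 and for no other tested member. The log2 difference of Dnai4 was -0.30 (SE 0.12; 95% confidence interval -0.56 to -0.05; limma adjusted p = 0.237). Across all genes tested, 5.87% were lower in every DSS library. Dnai4 overlaps Mier1 on the other strand, and the sources used here give no strand of counting.

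The next in order were Cfap20, Cfap36 and Cfap161. Cfap20, a doublet microtubule protein that is also expressed in cells without motile cilia, was 10.03, 9.23 and 7.67 FPKM in control and 9.79, 12.4, 11.1 and 12.4 FPKM in DSS libraries. The groups overlapped through control replicate 10, and the log2 difference was 0.32 (SE 0.12; limma adjusted p = 0.248). Cfap36 was 18.4, 24.1 and 21.5 FPKM in control and 19.99, 15.9, 15.02 and 11.5 FPKM in DSS libraries, with DSS replicate 75 inside the control range. Its log2 difference was -0.45 (SE 0.19; limma adjusted p = 0.269). Cfap161, a microtubule inner protein, was 1.77, 0.594 and 1.28 FPKM in control and 0.768, 0.467, 0.547 and 0.708 FPKM in DSS libraries. Its groups overlapped through control replicate 51, and the log2 difference was -0.42 (SE 0.18; limma adjusted p = 0.275). Dnah7b was the fifth, at 0.585 ± 0.0875 FPKM (SD, n = 3) in control and 0.784 ± 0.050 FPKM (SD, n = 4) in DSS libraries. Its log2 difference of 0.17 had a limma adjusted p of 0.522, although every DSS library was above every control library, as for 6.24% of all genes.

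Intervals for other members were wide. For Rsph1 the log2 difference was -0.28 with a 95% interval from -1.06 to 0.49, and for Cfap126 -0.14 with an interval from -0.81 to 0.53, so these libraries do not show that the levels were alike. In simulated data of this comparison with known differences, 48% of 2-fold and 98% of 4-fold changes were recovered, and 8.18% of the calls were false. The changes were placed only in genes with a mean above 1 FPKM, while 14 of the 64 members had a mean of 1 FPKM or more. Recovery at lower levels, where log2(FPKM + 1) understates changes, was therefore not tested, and these rates do not cover most members.

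The second comparison set DSS against control at day 89. No member passed the limma test, while 0.00555% of all genes did, and no member had an unadjusted p under 0.05, where 4.58% of all genes had one. The lowest adjusted p in limma was 0.924. The tested members were higher in DSS in 16 cases and lower in 10, where 50.8% of all genes were higher, with a median log2 difference of 0.08, against 0.00 for all genes. Over all 64 members, tested or not, 45 had a higher mean in DSS and 19 a lower one. Of the 35722 genes above 0 in any library, 17887 had a higher mean and 15034 a lower one. Drc3, a subunit of the nexin-dynein regulatory complex, had the smallest p. It was 0.339, 0.387 and 0.284 FPKM in control and 0.519, 0.636, 0.406 and 0.551 FPKM in DSS libraries. Every DSS library was above every control library, as held for 3 of 26 members and for 4.04% of all genes in this comparison. Cfap45 alone was lower in every DSS library (4.25% of all genes). The log2 difference of Drc3 was 0.19 (SE 0.12; 95% interval -0.06 to 0.45; limma adjusted p = 0.924). The next 4 were Dnah7b (log2 difference 0.19), Cfap20 (0.18), Cfap97 (-0.23) and Rsph10b (0.24), each with a limma adjusted p between 0.924 and 0.928.

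Whether the DSS difference itself changed between the days was tested as an interaction. No member passed in limma (lowest adjusted p = 0.572), and none of all 18006 genes did, which is 0% called. An unadjusted p under 0.05 was found for Dnai4 and Cfap161, 2 of 26 members, and for 8.45% of all genes. For Dnai4 the difference of the log2 differences was 0.40 (SE 0.17; limma adjusted p = 0.572), since its 4 DSS libraries lay below control at day 7 and above control at day 89. At day 89 Dnai4 was 0.703, 0.741 and 0.643 FPKM in control and 0.824, 0.818, 0.779 and 0.844 FPKM in DSS libraries. The 4 DSS libraries of Drc3 likewise lay below control at day 7 and above it at day 89, with a difference of 0.35 (limma adjusted p = 0.607).

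**Figure D2:**
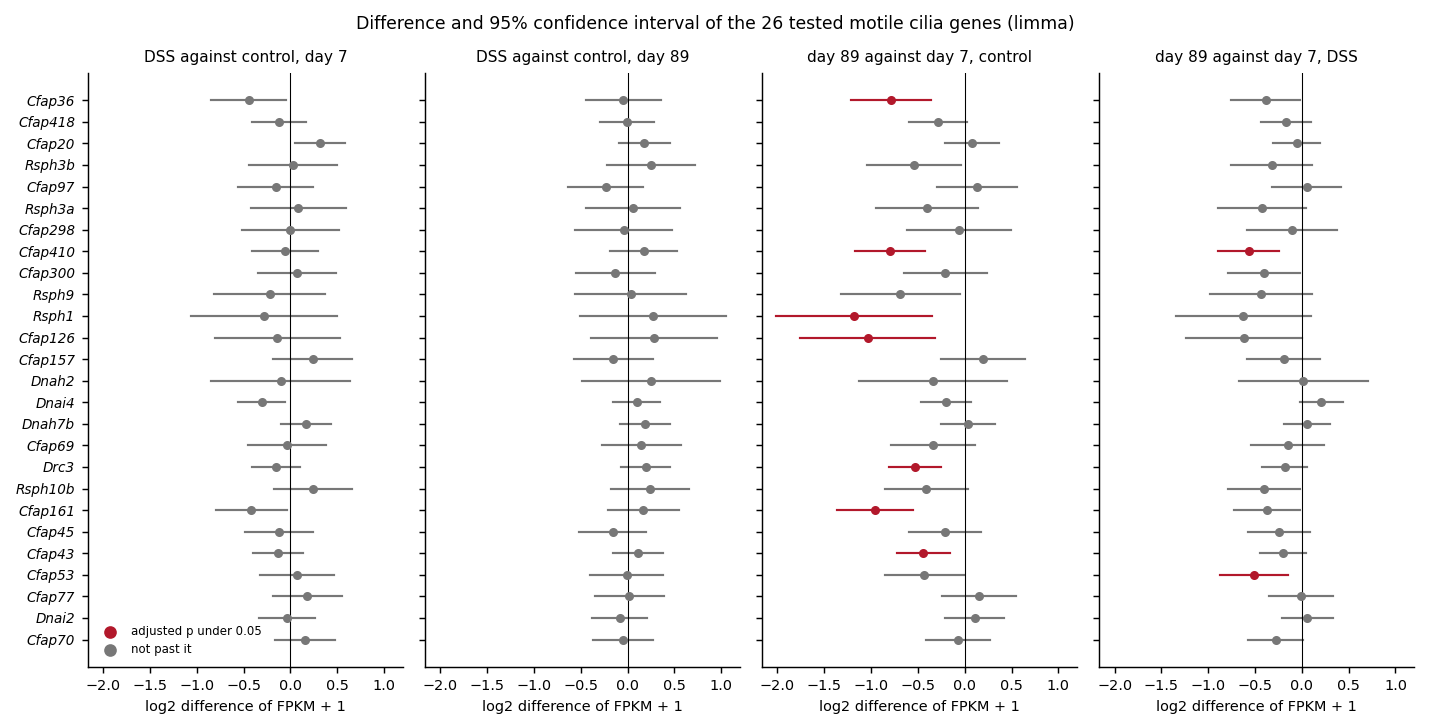
Log2 difference of FPKM + 1 with its 95% confidence interval for the 26 tested motile cilia genes in 4 comparisons, ordered by mean level. Red marks a limma adjusted p under 0.05: none in the DSS comparisons, 7 between the days in control and 2 between the days in DSS.

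Larger differences lay between the days. In control ovaries 7 of 26 tested members (26.9%) fell from day 7 to day 89 and none rose, where 15.7% of all genes tested fell and 16.1% rose. The median log2 difference of the tested members was -0.34, against 0.00 for all genes, and 20 of 26 were below 0 (50.3% of all genes). All day 89 libraries were below all day 7 libraries for 11 of 26, against 22.2% of all genes. Those that fell came from several classes: the spoke head gene Rsph1, the microtubule inner proteins Cfap126 and Cfap161, Drc3, the tether gene Cfap43, and Cfap36 and Cfap410, both expressed outside motile cilia. The filter bears on these counts. The tested members Cfap161, Cfap43, Cfap45, Cfap53 and Cfap70 reached 0.5 FPKM in day 7 libraries only, so they could pass only by being higher there, and no tested member reached it in day 89 libraries only. Without these 5, 5 of 21 members (23.8%) fell in control. Over all 64 members, tested or not, 46 (71.9%) had a lower mean at day 89 in control and 17 a higher one. Of the 35722 genes above 0 in any library, 16193 (45.3%) had a lower mean and 15572 a higher one, and the rest had equal means. All libraries were lower at day 89 for 18 of the 64 (28.1%), against 12.9% of those 35722 genes. Of those genes 17716 were untested, and all libraries were lower for 3.48% of them, against 7 of 38 untested members (18.4%).

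Cfap161 had the smallest p of the members, but it and Cfap43 had entered the test through day 7 libraries only. The 3 day 7 control values given above, 0.594 to 1.77 FPKM, were followed by 0.0857, 0.142 and 0.115 FPKM at day 89. No day 89 control library came near the lowest of day 7, and the log2 difference was -0.96 (SE 0.19; limma adjusted p = 0.00268). Rsph1 was 6.69, 3.27 and 7.32 FPKM at day 7 and 1.23, 1.97 and 2.54 FPKM at day 89 in control. It had the lowest log2 difference of the members, -1.18 (SE 0.39; limma adjusted p = 0.0329). Cfap126 was 7.24, 2.19 and 3.56 FPKM at day 7 and 1.63, 0.668 and 2.17 FPKM at day 89, so that control replicates 51 and R126 nearly met. Its log2 difference was -1.04 (SE 0.33; limma adjusted p = 0.0308). Drc3 was tighter, with 0.869, 0.874 and 1.05 FPKM at day 7 against 0.284 to 0.387 FPKM at day 89. The log2 difference was -0.53 (SE 0.13; limma adjusted p = 0.00752). Cfap43, which anchors parts of the axoneme to the doublet, was 0.717, 0.460 and 0.894 FPKM at day 7 and 0.341, 0.216 and 0.156 FPKM at day 89 in control, a log2 difference of -0.44 (limma adjusted p = 0.0212). Its locus overlaps Gsto1, Gsto2 and Itprip.

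Among the broadly expressed members, Cfap410 was 7.34, 5.16 and 5.76 FPKM at day 7 and 3.31, 2.61 and 3.24 FPKM at day 89 in control. The groups were far apart, and the log2 difference was -0.80 (SE 0.18; limma adjusted p = 0.00472). Cfap36 went from 18.4 to 24.1 FPKM at day 7 to 10.96 to 13.4 FPKM at day 89, with a log2 difference of -0.79 (SE 0.20; limma adjusted p = 0.00987). Cfap20, Cfap97, Cfap298 and Cfap418 did not pass, with log2 differences of 0.08, 0.13, -0.06 and -0.29.

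Rsph9 fell short of the threshold. It was 5.36, 4.79 and 5.28 FPKM at day 7 and 2.25, 4.44 and 2.13 FPKM at day 89 in control, where replicate R124 lay close to the day 7 libraries, and the limma adjusted p was 0.0892. That library also had the highest level of the oviduct secretory gene Ovgp1, 10.3 FPKM, against 0.215 to 4.59 FPKM in the other 13. The summed level of all members in R124, 77.4 FPKM, was the lowest of all libraries. Without the broadly expressed members and Rsph3a and Rsph3b it was not the lowest. That sum was 19.8 FPKM in R124, against 19.5 FPKM in control replicate R123 and 18.5 FPKM in DSS replicate R29.

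The control result leaned on the 3 libraries with the high mitochondrial share, 2 of which are day 7 controls. Without them, 1 control library remained at day 7 and 1 member fell, Cfap36, with a log2 difference of -0.96 (limma adjusted p = 0.0265). The lone library is assumed to vary like those of the other groups. In that fit the difference was -0.58 for Rsph1, -0.41 for Cfap126, -0.52 for Cfap161, -0.61 for Cfap410 and -0.49 for Drc3, with limma adjusted p of 0.395, 0.50, 0.106, 0.0928 and 0.0871, and Cfap43 no longer reached the filter. Leaving out control replicate 10 or control replicate 53 alone left 4 members that fell in each case.

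**Figure D3:**
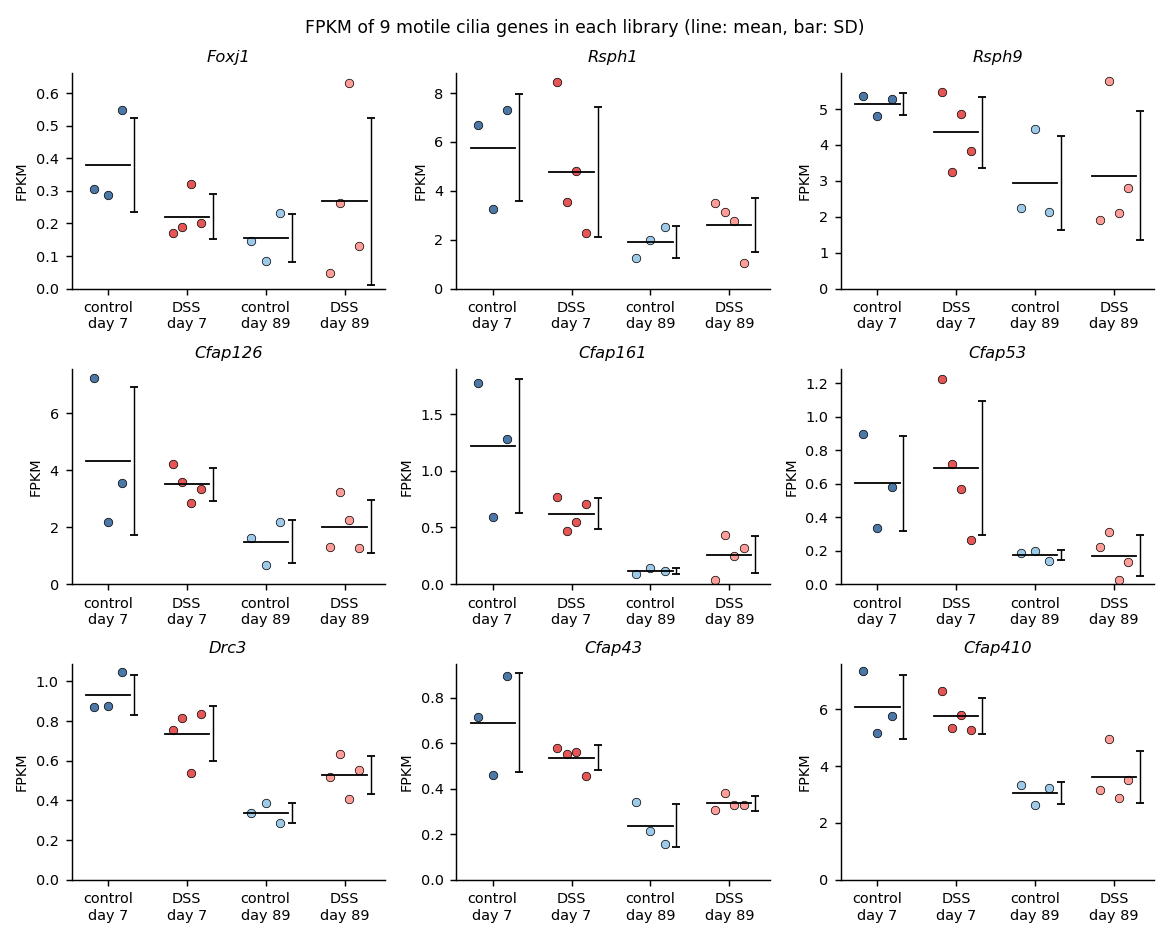
FPKM of 9 motile cilia genes in each of the 14 libraries by group. Points are libraries, lines are group means and bars are SD. For all 9 genes shown, the control libraries of day 89 lie below those of day 7, as for 28.1% of the 64 members and 12.9% of genes above 0 in any library. Foxj1 and Rsph9 spread widely at day 89 in DSS.

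In DSS ovaries 2 of 26 members (7.69%) fell from day 7 to day 89 and none rose, where 10.7% of all genes tested fell and 10.7% rose, so the members' share was not above that of all genes. The median of the members was -0.22, against 0.00 for all genes, and 21 of 26 were below 0 (49.6% of all genes). All day 89 libraries were lower for 3 of 26 (Cfap410, Cfap161 and Cfap43), against 12.7% of all genes, and higher for Dnai4 alone, against 12.2%. Over all 64 members 45 (70.3%) had a lower mean at day 89 and 19 a higher one. Of the genes above 0 in any library, 16074 (45.0%) had a lower mean and 17358 a higher one. All libraries were lower for 4 of the 64 (6.25%), against 7.197% of those genes. Cfap410 was 6.65, 5.33, 5.80 and 5.26 FPKM at day 7 and 3.16, 4.93, 2.88 and 3.49 FPKM at day 89. Every day 89 library was below every day 7 library, with R38 closest, and the log2 difference was -0.57 (SE 0.15; limma adjusted p = 0.0203). Cfap53, a microtubule inner protein known for its part in left-right patterning, was 1.23, 0.721, 0.569 and 0.263 FPKM at day 7 and 0.220, 0.309, 0.0235 and 0.131 FPKM at day 89. The groups overlapped, since DSS replicate 82 of day 7 lay under R38, and the log2 difference was -0.51 (SE 0.17; limma adjusted p = 0.0471). Cfap53 reached the filter in day 7 libraries only, and without the 5 such members 1 of 21 (4.76%) fell in DSS. Rsph10b, Cfap161, Cfap36 and Cfap300 had the next smallest p. Their log2 differences were -0.41, -0.37, -0.39 and -0.40 and did not pass (limma adjusted p = 0.118 to 0.123).

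Single libraries decided these counts. No member fell without DSS replicate 75, without R29 or without R78, and 5 fell without R38. The DSS and control comparisons between days share no library, but whether the day difference depends on treatment is the interaction given above, which no member passed.

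The summed level of the 58 members that are not broadly expressed shows the pattern library by library. It was 61.8, 39.99 and 52.6 FPKM in control and 58.5, 42.9, 47.4 and 43.7 FPKM in DSS libraries of day 7. At day 89 it was 33.3, 26.8 and 33.6 FPKM in control and 29.7, 44.7, 31.3 and 33.2 FPKM in DSS libraries. The 3 highest sums were those of the 3 libraries with the high mitochondrial share, and the only day 89 library to reach the day 7 range was R38. These 4 libraries also held the highest short-against-long values within their groups. What part the mitochondrial share or the length measure has in the result was not tested. Without Rsph3a and Rsph3b the sums were 26.04 to 41.8 FPKM at day 7 and 18.5 to 28.8 FPKM at day 89. In bulk tissue, fewer cells of a type and less RNA per cell cannot be told apart.

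**Figure D4:**
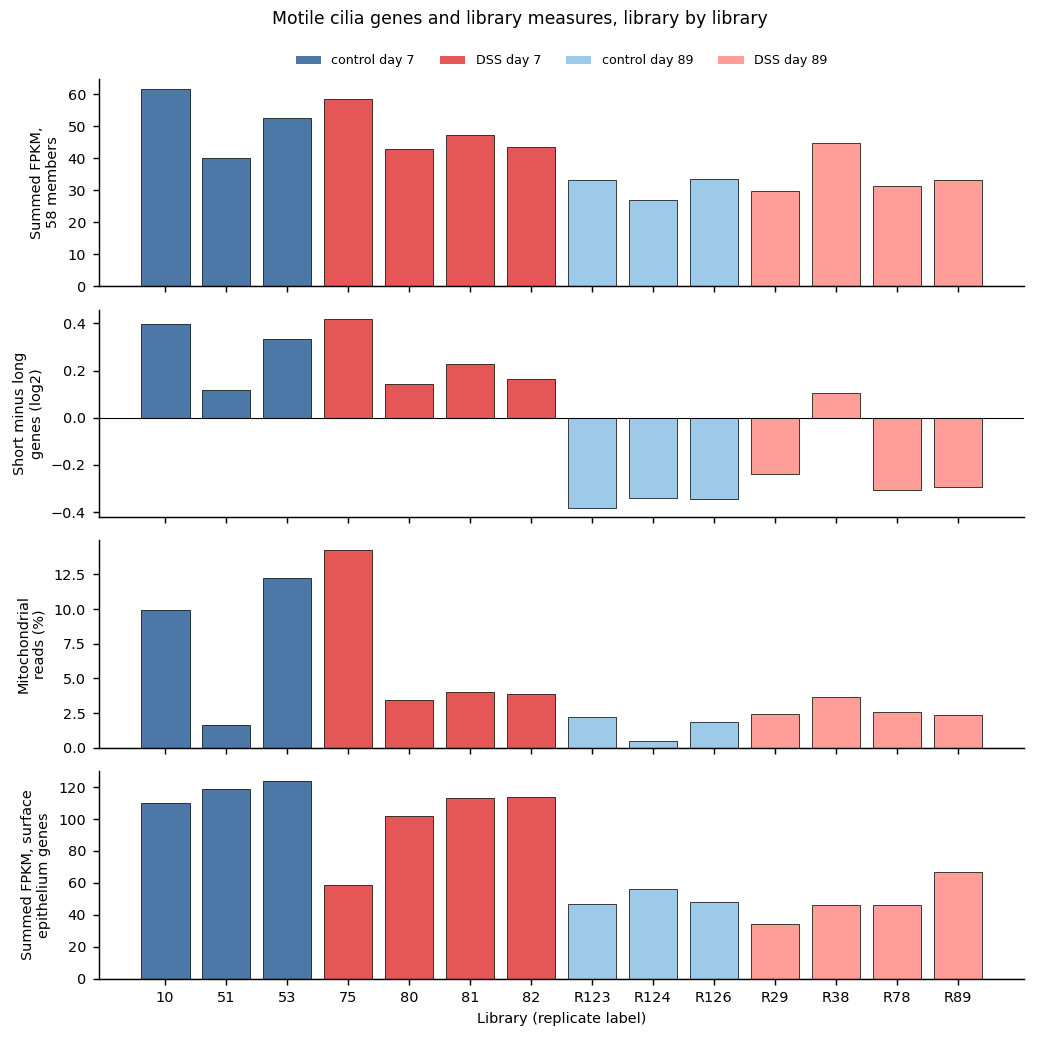
Measures of each library, coloured by group: the summed FPKM of the 58 motile cilia genes that are not broadly expressed, the short-minus-long measure, the percent of reads from mitochondrial genes, and the summed FPKM of ovarian surface epithelium and mesothelium genes. DSS replicate R38 of day 89 has a members' sum of 44.7 FPKM and a length measure of 0.11, and control replicates 10 and 53 and DSS replicate 75 exceed 9% in mitochondrial reads.

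Gene length moved with the day. Between the days in control, the median log2 difference of all genes was -0.32, -0.18, 0.07 and 0.29 from the shortest to the longest of 4 equal length classes. The members' medians in the same classes were -0.45, -0.42, 0.01 and -0.34, over 4, 10, 6 and 6 members. In DSS the medians of all genes were -0.20, -0.13, 0.05 and 0.20, and those of the members -0.42, -0.38, -0.12 and -0.07. With each library's trend over gene length removed, an alternative added after the data were seen, 6 members fell in control and 1 in DSS, and the members' medians were -0.39 and -0.30. In control, Rsph1 and Cfap126, 2 of the shorter members, no longer passed, at log2 differences of -0.87 and -0.77 (limma adjusted p = 0.0879 and 0.0802). Dnai4 passed in their place, at -0.46 (limma adjusted p = 0.0189).

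Genes of other compartments were counted beside the shares of all genes that fell, 15.7% in control and 10.7% in DSS. Of 13 tested genes of the ovarian surface epithelium and mesothelium, 9 (69.2%) fell in control and 9 in DSS. Their summed level per library was 109.8 to 123.9 FPKM in control and 58.8 to 114 FPKM in DSS at day 7, and 46.7 to 55.9 and 34.5 to 66.7 FPKM at day 89. Msln, the mesothelial surface protein, fell by 2.02 in control and by 1.89 in DSS on the log2 scale (limma adjusted p = 0.000618 and 0.00147), and Upk3b fell by 2.08 and 1.09 (limma adjusted p = 0.00244 and 0.0429). DSS replicate 75 had the lowest of the day 7 sums of surface genes and the second highest sum of motile cilia genes, so the 2 measures parted in that library. The general epithelial list, which shares Krt7, Krt8, Krt18, Krt19 and Cdh1 with it, had 8 of 13 tested genes that fell in each treatment. Of 12 oviduct secretory genes 6 were tested, and 1 (16.7%) fell in control and 2 in DSS, the former near the share of all genes. Levels within this list differed: Pax8, a defining marker of oviduct secretory cells, did not exceed 0.141 FPKM, while Ovgp1 reached 10.3 FPKM. The summed level of the 12 genes was 5.36 to 19.3 FPKM per library. Of 18 oocyte genes tested, 9 fell in control and 17 in DSS, and of 12 granulosa, theca and luteal genes 1 fell in control and 5 rose in DSS. The part of these compartments in the members' values was not tested.

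Axonemal genes outside the naming rule gave the same direction. Of 31 tested axonemal and ciliated-cell genes, 11 (35.5%) fell and 1 rose between the days in control, and 8 (25.8%) fell and none rose in DSS, where 15.7% and 10.7% of all genes fell. The median log2 differences were -0.43 and -0.31. Morn2 fell by 1.57 in control and by 0.64 in DSS on the log2 scale (limma adjusted p = 0.000658 and 0.0388). Tekt1, a tektin of the doublet wall, fell by 0.65 and 0.87 (limma adjusted p = 0.04999 and 0.0111). Spa17, a sperm and cilia scaffold protein, fell by 1.75 in control (limma adjusted p = 0.00308). Mlf1 was 17.8, 8.53 and 13.3 FPKM in control and 32.2, 37.8, 28.2 and 29.5 FPKM in DSS libraries of day 7. These DSS values all lay above control, and the log2 difference was 1.26, short of the threshold in limma (adjusted p = 0.0638). By day 89 Mlf1 was at 9.35 to 15.7 FPKM in every library, and its fall in DSS was by 1.27 (limma adjusted p = 0.00195).

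Few genes of the smaller lists passed. Of all genes, 15.7% fell in control and 10.7% in DSS, and 1 of 7 (14.3%) lies near these shares. Of 6 tested central apparatus genes outside the rule 2 (33.3%) fell in control, Spef1 and Wdr93, and 1 (16.7%) in DSS, Spef1. Of 7 docking, ruler and nexin genes 1 fell in each, Odad4 in control and Iqca in DSS. Of the 7 tested genes listed as dynein assembly factors, Ccdc103 fell and Tbc1d31, which is not an established one, rose in both treatments. The summed level of that list was 14.7 to 15.3 FPKM in control at day 7 and 19.1 to 21.8 FPKM at day 89. In DSS it was 13.7 to 17.4 FPKM and 16.8 to 22.4 FPKM. The intraflagellar transport and Bbsome genes, which serve primary cilia as well, had 6 that rose (15.4%) and 8 that fell (20.5%) of 39 in control, where 16.1% and 15.7% of all genes did. In DSS 5 rose and 5 fell (12.8% each, against 10.7% each). Of 7 multiciliogenesis regulators tested, none passed in control, while 3 (42.9%) fell in DSS. They were Ccno, E2f5 and Gmnn, which also act in the cell cycle or in oocytes. No gene of any of these lists passed the limma test in either comparison of DSS with control.

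The members followed each other in part. For each of the 20 tested members that are not broadly expressed, log2(FPKM + 1) was correlated over the 14 libraries with the mean standardised level of the other members. This is a description, and the libraries share their day, depth and length profile. The median r was 0.68, from -0.19 for Dnah2 to 0.89 for Cfap126, and 12 exceeded 0.5. Cfap126, Cfap69, Cfap161, Cfap43 and Cfap53 were the most alike, while Dnah2, Dnai4 and Cfap77 were below 0. Cfap161, Cfap43 and Cfap53 passed the filter through day 7 libraries only, as did Cfap45 and Cfap70, which the profile also holds. A higher level at day 7 was thus a condition of their entry, and part of these r values can come from it. Cfap410, broadly expressed and outside the profile, followed it with r = 0.96.

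The 15 genes outside the rule whose pattern over the 14 libraries was most like the members' mean had r from 0.96 to 0.98, and none of them was on a list used here, although Dynlrb1 encodes a dynein light chain. In order they were Hcfc1r1, Cox6b2, Cyp2u1, Hexdc, Tagap1, Ddit3, Abtb1, Gtf2f1, Mdk, Slc50a1, Prss36, Dynlrb1, 1810058I24Rik, Septin1 and Frs3. Hcfc1r1 was at 135, 68.9 and 109 FPKM in control libraries of day 7, at 39.2 to 48.9 FPKM in those of day 89 and at 92.3 FPKM in R38, and it was thus high in the same libraries as the members. Of the 15 genes, 12 were shorter than the median gene tested (3422 bases). Of the 200 most alike, 66.0% were shorter, against 37.0% of all 13774 protein-coding genes compared, and 1029 genes had r over 0.8. By comparison the median r was 0.61 for axonemal and ciliated-cell genes outside the rule, 0.68 for oocyte genes and 0.43 for the 8 surface epithelium genes compared. The median r of all genes compared was -0.09, and that of granulosa, theca and luteal genes -0.49. The genes with r over 0.8, 1029 of the 13774 compared, included 8 of 31 axonemal and 7 of 39 intraflagellar transport and Bbsome genes. The median r of the intraflagellar transport and Bbsome genes was -0.15, so that list as a whole did not follow the members.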

How the data were processed

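The authors deposited 1 table of FPKM values, with 1 column per library and a length for each gene. HISAT2 2.0.5 and GRCm38 are named in the submitters' processing notes, and a TruSeq kit for total RNA in the labels' protocols. The counter, annotation and strand were not given in the sources used here, so overlapping genes and near-identical copies are uncertain. The values times gene length fell on whole multiples of 1 read, within 0.01 of a step below 300 steps, for 100% of values checked, which gave the reads.

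The log2(FPKM + 1) values, which understate changes of low genes, were fitted with limma 3.58.1 in R 4.3.3. The fit used limma-trend on all 14 libraries with 1 mean per group. Genes with 0.5 FPKM or more in at least 3 libraries entered (18006 genes). Adjusted p values are Benjamini-Hochberg over all of them, with 0.05 as the threshold. The fit was tested on simulated data.

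Members and lists were chosen with earlier results of these data known. The genes named are Foxj1, the 2 highest tested members of each role, the 5 smallest p per comparison, sperm-tail members, list genes past the threshold or highest in level, and the 15 genes most alike. Others were named after their values were seen. Positions come from GENCODE M21 on GRCm38, matched by gene ID for all 64 members, and 59 members matched RefSeq. Alternatives covered the pseudocount, filter, libraries in the fit, scaling, reads by voom, library weights, each library left out, gene length and the mitochondrial share.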

Additional observations from a re-analysis of the deposited data

Results flagged for a closer look

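Among 54 sets of 4 DSS libraries (27 members, 2 days), 4 (7.41%) had a library far from the other 3, where chance gives about 1 in 20. In DSS replicate R38 of day 89, Cfap97 was low at 4.08 FPKM, against 7.80 to 8.43 FPKM in the others. Rsph3a was high in the same library at 7.68 FPKM, against 4.97 to 5.30 FPKM. Cfap157 was high in DSS replicate 75 of day 7 at 1.92 FPKM, against 0.950 to 1.09 FPKM. Dnah2 was high in DSS replicate R89 of day 89 at 2.62 FPKM, against 0.595 to 0.674 FPKM. R38 and replicate 75 are libraries that the length measure or the mitochondrial share also sets apart, and what that has to do with these values was not tested.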

How the results depend on the processing

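The median log2 difference of the tested members stayed below 0 in both day comparisons under all alternatives run, from -0.54 to -0.08 in control and from -0.41 to -0.03 in DSS. At day 89 no alternative gave a member past the threshold between DSS and control. With library weights, 6 members passed at day 7, 15 between days in control, 11 between days in DSS and 4 in the interaction, and Cfap97 at day 89 turned to 0.021 (from -0.23). With those weights 11786 of all genes passed between the days in control, against 5732 without. In control, where 7 members fell, 4 did so with a filter at 1 FPKM, 1 without the 3 libraries of high mitochondrial share and 3 with a term for them, an alternative added after the data were seen. Leaving out 1 library gave 4 to 7. In DSS, where 2 fell, 1 did so with no filter, with a filter at 1 FPKM, with only the compared libraries, without the 3 libraries, with that term and with the length trend removed. Leaving out 1 library gave 0 to 5, and leaving out 1 control or DSS library gave 0 members at day 7, at day 89 and in the interaction. The cause of these changes was not tested. No paired analysis was possible because no replicate number recurs between groups. The 38 members under the filter had 0.5 to 58.6 reads per library on average, and counting error exceeded 25% for 29 of them.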
